A study of Homo sapiens with 2 samples.

Results

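Of 28695 regions enriched for histone H3 lactylated at lysine 18 (H3K18la) in H1299 cells, 2211 lay deep inside long genes. A peak was counted as deep when it stood on chromosomes 1 to 22, wholly within a protein-coding gene of at least 200000 bp, and at least 50000 bp from the start and end of every protein-coding gene. Gene spans were those of RefSeq on GRCh38, and 27916 of the peaks stood on chromosomes 1 to 22. No measured value entered this choice. H1299 is an established human non-small cell lung cancer line. The series holds 1 library immunoprecipitated from crosslinked H1299 chromatin with an anti-H3K18la antibody and 1 input library, and only the peak list of the first was analysed here. No treatment is named for either library. The second library is labelled input, while the series' design mentions IgG, the peak names begin with NC without explanation, and the depth of both libraries is unknown. With 1 library a group there was no replicate and no test, so every interval below is an exact 95% interval that covers counting error only, and a gene without a listed peak is one with no peak in this list.

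Histone lactylation is a mark placed on lysines by a reaction that draws on lactate, and H3K18la has been described at active promoters and at enhancers. Long genes are mostly intron. Their interiors can hold enhancers, noncoding genes and inner promoters, from which shorter forms of the protein can be made without the first exons. Here a start is called inner by its place in the RefSeq span of the gene, whether or not it is the gene's main start.

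The clearest feature of the strongest deep peaks was an annotated inner transcription start of the gene around them. The 250 bases before a few such starts are shown here as RefSeq gives them on GRCh38.p14, 5′ to 3′, with each CG dinucleotide in capitals. The starts of CDYL and PDE4D come in pairs, 1 under a deep peak and 1 in the same gene without a peak. They were picked after their values were seen, and all 9 can be set against the CG counts given further on.
CDYL, inner start with a peak, chr6:4776154-4776403 (plus strand): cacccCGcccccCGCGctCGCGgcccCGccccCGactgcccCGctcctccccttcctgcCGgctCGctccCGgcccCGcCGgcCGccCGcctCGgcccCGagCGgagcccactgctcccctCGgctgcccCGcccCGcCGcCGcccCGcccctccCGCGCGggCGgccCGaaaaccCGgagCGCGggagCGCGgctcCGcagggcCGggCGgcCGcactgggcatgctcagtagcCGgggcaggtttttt
CDYL, inner start without a peak, chr6:4889790-4890039 (plus strand): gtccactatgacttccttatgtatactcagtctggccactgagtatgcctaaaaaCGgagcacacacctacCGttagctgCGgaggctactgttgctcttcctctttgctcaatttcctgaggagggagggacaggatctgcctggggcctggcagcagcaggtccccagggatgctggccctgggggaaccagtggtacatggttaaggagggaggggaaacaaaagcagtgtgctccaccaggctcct
PDE4D, inner start with a peak, chr5:59039477-59039726 (minus strand): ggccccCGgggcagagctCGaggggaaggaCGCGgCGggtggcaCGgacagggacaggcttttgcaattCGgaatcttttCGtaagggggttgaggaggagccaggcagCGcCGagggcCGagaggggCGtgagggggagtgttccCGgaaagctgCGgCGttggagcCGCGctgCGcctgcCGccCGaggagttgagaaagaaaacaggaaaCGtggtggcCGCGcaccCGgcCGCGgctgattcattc
PDE4D, inner start without a peak, chr5:59356971-59357220 (minus strand): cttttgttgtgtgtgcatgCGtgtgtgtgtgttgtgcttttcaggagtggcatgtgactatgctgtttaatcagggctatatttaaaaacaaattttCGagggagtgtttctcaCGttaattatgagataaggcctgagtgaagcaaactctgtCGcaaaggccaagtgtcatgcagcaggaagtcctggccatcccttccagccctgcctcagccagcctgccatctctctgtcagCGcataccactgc
BCAR3, inner start with a peak, chr1:93681371-93681620 (minus strand): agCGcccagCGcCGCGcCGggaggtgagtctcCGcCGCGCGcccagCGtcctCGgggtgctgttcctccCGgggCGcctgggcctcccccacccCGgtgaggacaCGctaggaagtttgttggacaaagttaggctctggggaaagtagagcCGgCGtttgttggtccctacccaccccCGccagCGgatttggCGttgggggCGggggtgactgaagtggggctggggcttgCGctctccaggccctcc
TJP1, inner start with a peak, chr15:29822469-29822718 (minus strand): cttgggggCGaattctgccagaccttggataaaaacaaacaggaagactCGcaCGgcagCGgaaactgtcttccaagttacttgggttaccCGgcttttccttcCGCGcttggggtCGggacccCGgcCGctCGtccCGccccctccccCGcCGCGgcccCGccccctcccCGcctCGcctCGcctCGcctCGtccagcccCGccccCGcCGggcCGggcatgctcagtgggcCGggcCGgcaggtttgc
FGF12, inner start with a peak, chr3:192409598-192409847 (minus strand): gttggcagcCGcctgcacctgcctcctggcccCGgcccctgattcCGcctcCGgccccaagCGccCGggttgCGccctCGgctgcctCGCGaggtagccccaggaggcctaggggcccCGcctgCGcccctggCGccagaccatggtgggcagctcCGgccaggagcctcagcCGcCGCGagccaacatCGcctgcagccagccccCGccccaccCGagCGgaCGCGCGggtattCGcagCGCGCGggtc
ZFHX3, inner start with a peak, chr16:73048129-73048378 (minus strand): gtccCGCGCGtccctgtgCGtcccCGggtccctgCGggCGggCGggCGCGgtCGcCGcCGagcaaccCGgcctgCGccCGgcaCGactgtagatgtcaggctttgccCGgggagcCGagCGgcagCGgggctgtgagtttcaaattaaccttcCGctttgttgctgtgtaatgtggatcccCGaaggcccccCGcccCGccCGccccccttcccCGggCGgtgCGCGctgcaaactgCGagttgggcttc
MTA3, inner start with a peak, chr2:42567795-42568044 (plus strand): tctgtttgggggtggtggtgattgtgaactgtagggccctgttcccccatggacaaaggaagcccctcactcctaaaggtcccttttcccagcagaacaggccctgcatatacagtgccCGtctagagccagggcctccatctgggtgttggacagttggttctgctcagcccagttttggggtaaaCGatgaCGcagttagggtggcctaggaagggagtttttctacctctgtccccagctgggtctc
The stretch before the CDYL start with a peak holds 39 CG dinucleotides, against 3 before the CDYL start without one. For PDE4D the counts were 26 at the start with a peak and 5 at the start without. In the wider windows used further on, all PDE4D inner starts without a peak averaged 7.6 CG, against 32 at the start with one. The 5 other stretches shown hold 22 (BCAR3), 27 (TJP1), 28 (FGF12), 31 (ZFHX3) and 3 (MTA3) CG dinucleotides. The MTA3 start, which carried the highest fold of all deep peaks, was thus poor in CG in the bases before it. For BCAR3 and TJP1 the start shown is the richest in CG of those annotated at the same peak. The others had 13 and 21 CG at the BCAR3 peak, and 2 and 19 CG at the TJP1 peak.

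Deep peaks were weaker than peaks at gene ends and of much the same strength as other peaks away from them. Fold enrichment is the authors' ratio of immunoprecipitated signal to the caller's background, averaged over the peak. The 2211 deep peaks had a median of 3.82-fold (interval 3.77 to 3.87), with quartiles of 3.28 and 4.68 and a range of 2.24 to 15.2. The 1019 peaks within the same kind of long gene but 1000 to 50000 bp from an end had a median of 3.80-fold, and 3042 peaks between genes, at least 50 kb from any end, had 3.83-fold. The 10371 peaks within 1000 bp of a gene end had a median of 5.47-fold. At least 5-fold enrichment was found in 423 deep peaks, 19.1% (17.5 to 20.8), where 36.9% of all peaks on chromosomes 1 to 22 reached it. Only 21 deep peaks, 0.9498%, reached 10-fold, against 5.93% at gene ends. The median width was 1183 bp (1120 to 1248) for deep peaks and 1380 bp at gene ends, and the deep peaks ran from 288 to 20699 bp. Together they covered 3.41 Mb.

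**Figure D1:**
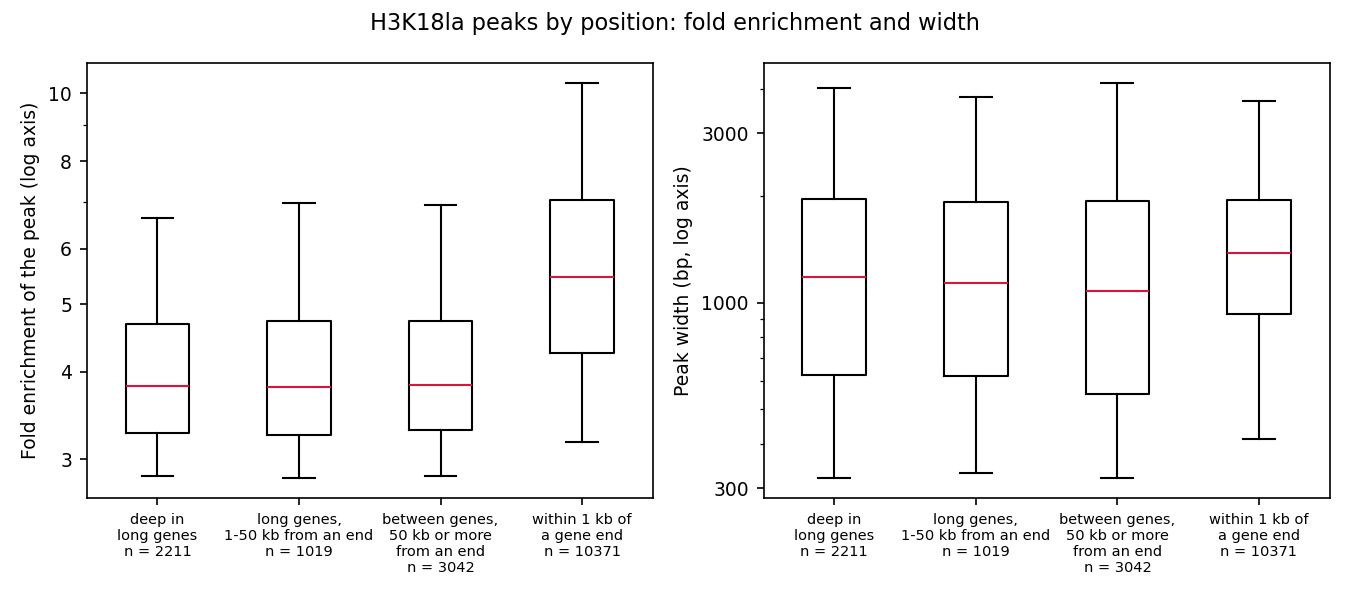
Fold enrichment (left) and width in bp (right) of peaks by position, both on log axes; boxes span the quartiles, the red line is the median and whiskers reach the 5th and 95th percentiles of the peaks of 1 library. Deep peaks (median 3.82-fold, 1183 bp) have medians near those of the other peaks away from gene ends, and peaks within 1 kb of a gene end stand higher, at 5.47-fold.

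A transcription start lay at few deep peaks, but at most of the strongest. Starts could be looked up for 1871 deep peaks, and 185 of these, 9.89% (8.57 to 11.3), lay within 1000 bp of an annotated start. Among all peaks of chromosomes 1 to 22 that could be looked up, 38.5% did, and at gene ends 81.9%. A peak outside long genes was looked up wherever the table of starts covers its chromosome, even if the gene nearby has no entry. Shares that include such peaks can therefore be too low. Other peaks away from gene ends were like the deep ones, with 10.1% (8.10 to 12.3) in long genes nearer their ends and 7.92% (6.95 to 8.98) far between genes. Of the 185, 151 stood at a start of the host gene itself. The other 34 stood at the start of a long noncoding RNA gene (lncRNA) and at no host start, since peaks at both were counted with the host. Peaks at a host start had a median of 4.90-fold (4.54 to 5.39) and a width of 1627 bp. Those at a lncRNA start only had 4.05-fold (3.67 to 5.93), and the 1686 with no start 3.79-fold (3.73 to 3.84) and 1145 bp. In 10 equal groups of rising fold, the share at a host start was 4.79%, 2.14%, 4.81%, 2.67%, 6.42%, 5.35%, 5.88%, 10.2%, 11.8% and 26.7% (20.5 to 33.7 in the last). Among deep peaks of at least 10-fold, 12 of the 17 that could be looked up, 70.6% (44.0 to 89.7), stood at a host start. This relation was noticed in the data and then counted. It was not counted in the other classes of peaks, so it cannot be called particular to deep peaks.

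Read from the side of the starts, RefSeq placed 666 separate starts of 389 long genes in the deep interior, and 154 of them, 23.1% (19.97 to 26.5), had a peak within 1000 bp. The outer starts of the long genes had one far more often, at 553 of 925, or 59.8% (56.5 to 63.0). Starts of lncRNA genes in the deep interior had one less often, at 60 of 802, or 7.48% (5.76 to 9.53). Whether or not a host start lay at the same peak, the median was 4.79-fold at these 60. It was 4.93-fold at the 154 inner starts of the long genes. In all, 126 genes had a marked inner start, and each gene was taken at the one of highest fold. Of these, 68 also had a peak at the gene's 5′ end and 58 had none there, while 118 genes had a peak at the 5′ end only and 145 at neither. In 26 of the 68 genes marked at both, the inner peak had the higher fold. Their median was 5.03-fold at the inner start and 5.91-fold at the 5′ end, and the 58 inner starts without a 5′ peak had a median of 5.49-fold. The marked inner starts lay 55.0 to 1483 kb inside their genes, with a median of 144 kb.

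**Figure D2:**
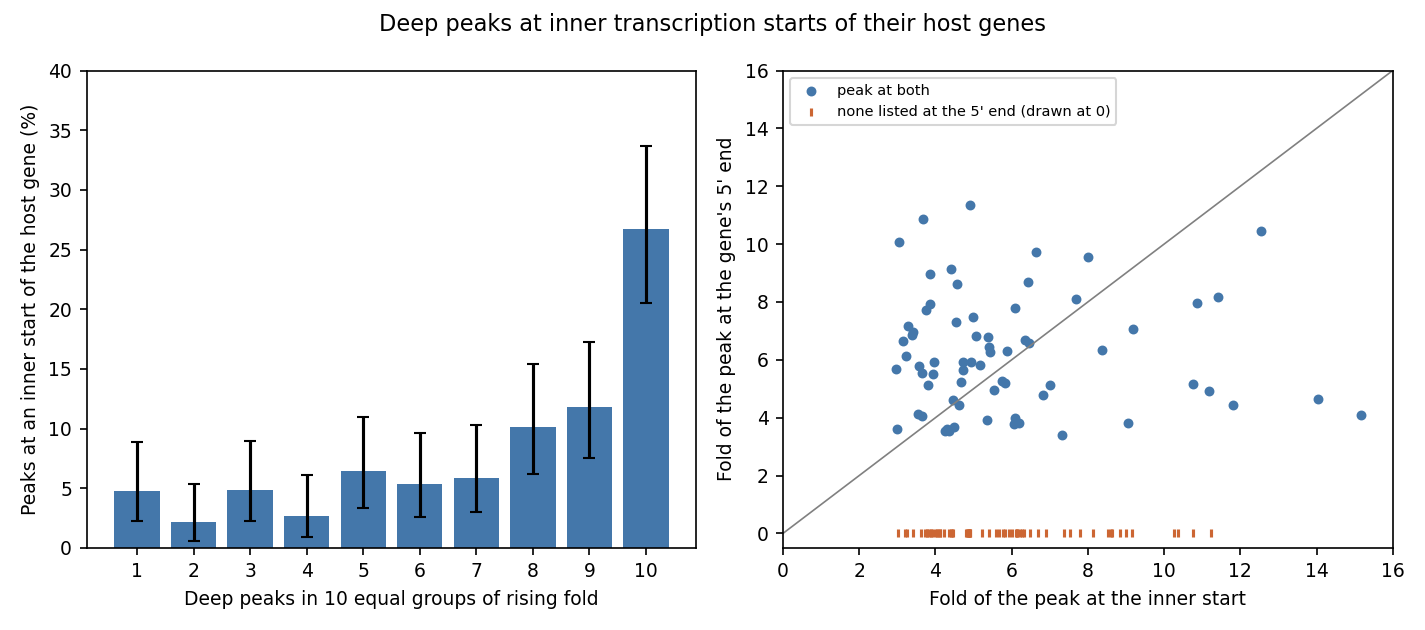
Left, the share (%) of deep peaks at an inner start of their host gene, in 10 equal groups of rising fold. Error bars are exact 95% intervals. Right, for 126 genes, the fold at the marked inner start of highest fold against the fold at the gene's 5′ end. Genes lacking a 5′ peak are drawn at 0, and a grey line marks equal folds. The share stands at 26.7% in the group of highest fold and at 4.79% in the lowest, and 26 of 68 points lie below the line, where the inner fold is the higher.

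Genes of chromatin and transcription control were among those with a strong inner start. MTA3, a subunit of the NuRD corepressor complex, had 15.2-fold at an inner start 73.9 kb inside the gene (peak chr2:42567944-42569564) and 4.1-fold at its 5′ end. ZMYM2, a zinc finger partner of the LSD1 corepressor complex, had 12.6-fold at an inner start and 10.5-fold at its 5′ end, so that both ranked high. KCTD1, a repressor of AP-2 transcription factors, had 11.4-fold inside and 8.16-fold at its 5′ end. GSE1, a protein of histone deacetylase complexes, had 11.2-fold at 444 kb inside and 4.93-fold at its 5′ end. NFIB, a nuclear factor I transcription factor, had 7 inner starts, 3 of them at a deep peak, with 11.2-fold at the strongest (peak chr9:14312701-14317759) and no peak at its 5′ end. CDYL, a chromodomain corepressor, had 10.8-fold 70.3 kb inside (peak chr6:4774999-4777491) and no 5′ peak. ZFHX3, a zinc finger and homeobox factor, had 10.3-fold 844 kb inside and no 5′ peak. HDAC9, a class II histone deacetylase, had 6.09-fold inside and 3.997-fold at its 5′ end. WWTR1, the YAP partner TAZ, had 8.12-fold inside and no 5′ peak.

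Signalling and cytoskeletal genes showed both arrangements. BCAR3, an adaptor of integrin signalling, had 14.05-fold 166 kb inside (peak chr1:93680285-93682427) and 4.65-fold at its 5′ end. ABR, a signalling gene related to BCR, had 11.8-fold 121 kb inside and 4.43-fold at its 5′ end. TJP1, the tight junction scaffold ZO-1, had 10.8-fold 147 kb inside and 5.15-fold at its 5′ end. In these genes the inner peak was the stronger. DDAH1, an enzyme that degrades asymmetric dimethylarginine, had 10.9-fold inside and 7.96-fold at the 5′ end. FGF12, an intracellular fibroblast growth factor that binds sodium channels, had 10.4-fold 318 kb inside and no 5′ peak. The peak at the FGF12 start stood where the background, the reads the caller expected under a peak, was raised, at 7.54 reads against a median of 3.24 over all deep peaks, and its part in the fold was not tested. The background was also high at the inner starts of CDYL (6.48 reads), ZFHX3 (6.33 reads), CAST (6.15 reads) and GSE1 (6.03 reads), and its part there was not tested either. CAST, the calpain inhibitor calpastatin, had 9.19-fold 701 kb inside and 7.06-fold at the 5′ end of its annotated span. PDE4D, a cyclic AMP phosphodiesterase with many isoforms, had a peak at 1 of its 6 inner starts, 1483 kb inside and 6.12-fold (peak chr5:59038723-59040383), and none at the 5′ end. Which of these starts are transcribed in H1299 was not measured.

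Inner starts with a peak were richer in CG than inner starts without one, and poorer than marked outer starts. In windows of 300 bases, from 250 before a start to 50 after it, the median was 16.5 CG dinucleotides for the 154 inner starts with a peak (quartiles 5 and 34) and 4 for the 512 without (quartiles 2 and 9). Outer starts had medians of 30 with a peak and 20 without, and all 33725 windows of chromosomes 1 to 22 had 14. The median GC content was 58.2% at inner starts with a peak and 46.7% at those without. A CpG-rich window, with at least 50% GC and an observed over expected CG ratio of at least 0.6, was found at 51.3% (43.1 to 59.4) of inner starts with a peak and at 13.9% (10.99 to 17.2) of those without. It was found at 87.3% of marked outer starts and 47.1% of all windows. In the 57 genes that had inner starts of both kinds, the starts with a peak held more CG on average in 43, fewer in 13 and as many in 1. NFIB averaged 28 CG at the starts with a peak and 6 at the others, and ABR 39 and 11. KIAA1217 went the other way, with 4.5 at the starts with a peak and 21 at the one without.

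Motifs were counted as strings of letters on either strand in the same windows, and a match is no evidence of binding. TGANTCA, the AP-1 core, occurred in 14.3% (9.17 to 20.8) of inner starts with a peak, in 12.3% (9.59 to 15.5) of those without, in 1.99% of outer starts with a peak and in 7.67% of all windows. CCGGAAG, an ETS core, occurred in 5.19% (2.27 to 9.98) of inner starts with a peak, 2.34% (1.22 to 4.06) of those without and 10.3% of all windows. GGAATG, the TEAD core, occurred in 15.6% of inner starts with a peak, 18.2% of those without and 14.04% of all windows. CANNTG, the E-box, occurred in 70.1%, 78.1% and 68.6% of the same 3 sets. The interval of each motif among inner starts with a peak overlapped that among inner starts without.

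A few of the strongest deep peaks had no annotated start of the host. BCAR3 held a second peak of 11.8-fold and 5350 bp at an end of the lncRNA gene LOC102723480. DLGAP1, a postsynaptic scaffold gene, held 7 deep peaks between 780 and 860 kb from its 5′ end, the strongest of 11.3-fold and 6920 bp. Starts of the antisense lncRNA genes DLGAP1-AS1, DLGAP1-AS2 and DLGAP1-AS6 lay at 3 of the other DLGAP1 peaks, of 7.37, 9.73 and 7.62-fold. MYLK, the myosin light chain kinase gene, held 1 peak of 10.5-fold and 2979 bp with neither a start nor a noncoding gene end. AOPEP, an aminopeptidase gene, held a peak of 10.1-fold and 1248 bp, and GSE1 held 1 of 10.3-fold besides that at its inner start. The other 4 deep peaks of at least 10-fold could not be looked up, since the start table lacks their hosts. They were in NCOA2, a nuclear receptor coactivator (14.6-fold), HIPK2, a nuclear kinase (11.5-fold), KCNQ1, a potassium channel gene (11.2-fold), and ZNF469, a zinc finger gene (10.5-fold). The KCNQ1 peak was 574 bp wide and stood at an end of KCNQ1OT1, the noncoding antisense transcript of that imprinted region. The NCOA2 peak stood where the background was raised, at 8.01 reads.

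Ends of noncoding genes were at 154 deep peaks, 6.97% (5.94 to 8.11), against 7.07% in long genes nearer their ends, 16.4% far between genes and 26.3% at gene ends. The deep peaks at a noncoding end had a median of 4.84-fold and the others 3.79-fold. An end of a lncRNA gene was at 122 of them, of a pseudogene at 23 and of a microRNA gene at 9. The microRNA hairpins of RefSeq that lay within a deep peak numbered 4, and their mature sequences are shown with the seed, bases 2 to 8, in capitals. No seed was shared.
hsa-miR-4785 (in RBMS1, minus strand): aGAGUCGGcgacgccgccagc
hsa-miR-583 (in CAST, plus strand): cAAAGAGGaaggucccauuac
hsa-miR-3973 (in LDLRAD3, plus strand): aCAAAGUAcagcauuagccuuag
hsa-miR-6124 (in MICAL2, plus strand): gGGAAAAGgaagggggagga
The peak around MIR4785, in the RNA-binding protein gene RBMS1, had 9.46-fold and a width of 2241 bp. Those around MIR583 in CAST, MIR3973 in LDLRAD3 and MIR6124 in MICAL2 had 5.08, 3.80 and 3.56-fold.

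By length of sequence, the deep interior of long genes held more peaks than sequence far between genes and fewer than the rest of the genome. It spanned 411.8 Mb with 5.37 peaks per Mb (5.15 to 5.60). Sequence between genes at the same distance from gene ends had 2.98 per Mb (2.88 to 3.09). Long genes 1 to 50 kb from an end had 7.02 per Mb (6.60 to 7.46), and chromosomes 1 to 22 outside the deep interior had 10.8. Unassembled stretches were not taken out of these lengths, and their part in the densities was not tested. Many deep peaks were close together, so the intervals of these densities are too narrow. Going inward over all long genes, the density was 7.63 per Mb at 1 to 5 kb from an end, 6.997 at 5 to 10 kb, 7.21 at 10 to 25 kb and 6.78 at 25 to 50 kb. It was then 7.41 at 50 to 100 kb, 5.64 at 100 to 200 kb, 3.27 at 200 to 500 kb and 1.13 (0.727 to 1.69) beyond 500 kb.

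Taken by gene length, the fall was smaller or absent. Genes with a deep interior of 100 to 200 kb had 8.64 peaks per Mb at 1 to 50 kb from an end, 9.07 at 50 to 100 kb and 8.79 at 100 kb or more, with overlapping intervals. Genes with 200 to 500 kb had 6.56, 7.22, 6.08 and, beyond 200 kb, 5.03 per Mb. Genes with 500 kb or more had 4.09, 3.81, 2.92 and 2.52 per Mb at the same distances. The longest genes were thus sparse even close to their ends. Genes with less than 100 kb were left out of this comparison. Along the host from its 5′ end, 5 equal stretches held 4.45, 6.41, 6.02, 5.43 and 3.84 deep peaks per Mb of deep interior, lowest in the outermost stretches. The outermost stretches have deep interior only in the longer genes, 38.0 and 37.2 Mb against 86.8 to 89.7 Mb in the others, so these densities compare different sets of genes.

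**Figure D3:**
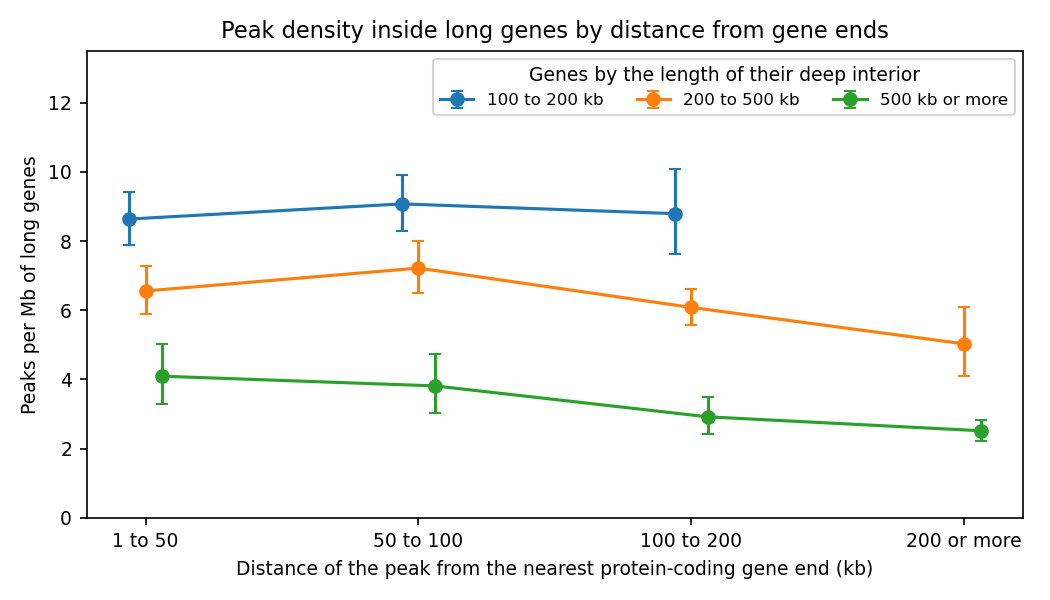
Peaks per Mb of long genes by distance from the nearest protein-coding gene end, in kb, for genes grouped by the length of their deep interior, with exact 95% counting intervals. The line of genes with 100 to 200 kb is flat at 8.64 to 9.07 per Mb, and the genes with 500 kb or more lie lowest at each distance, between 4.09 and 2.52 per Mb.

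Of 1325 long genes with any deep interior, 695 held at least 1 deep peak, which is 52.5%. A single deep peak was found in 247, 2 to 4 in 299, 5 to 9 in 118 and at least 10 in 31, and these 31 genes held 405 deep peaks, 18.3%. The share of genes with a deep peak was 24.6% (14.1 to 37.8) for the 57 genes with a deep interior under 100 kb, at 5.43 (3.22 to 8.57) deep peaks per Mb. It was 49.2% (45.0 to 53.4) for a deep interior of 100 to 200 kb, 58.5% for 200 to 500 kb, 55.2% for 500 to 1000 kb and 51.8% (38.0 to 65.3) for longer ones. Over these 4 longer classes, in the same order, the density was 9.04, 6.30, 3.89 and 1.40 per Mb.

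Genes with a peak at their 5′ end were denser in deep peaks than genes without. Where the strand was known, 606 genes had a peak within 1000 bp of the 5′ end and 493 had none. The first held 8.001 deep peaks per Mb (7.57 to 8.45) and 62.5% (58.6 to 66.4) held at least 1. The second held 3.40 per Mb (3.13 to 3.68) and 41.4% (37.0 to 45.9) held at least 1. The same order held at 100 to 200 kb of deep interior, with 11.02 against 6.03 per Mb, at 200 to 500 kb, with 8.32 against 4.34, and at 500 kb or more, with 4.93 against 2.02. It was the other way in the few genes with less than 100 kb of deep interior, where 5 of 31 genes with a 5′ peak and 7 of 18 without held a deep peak, at 4.02 (1.74 to 7.93) against 8.22 (3.55 to 16.2) per Mb, with overlapping intervals. The strength of the deep peaks did not follow, since their median was 3.81-fold in genes with a 5′ peak and 3.94-fold in genes without. The median background at the deep peaks was 3.28 reads in genes with a 5′ peak and 3.03 in genes without, and its part in the difference was not tested. At the 3′ end a peak was rare, in 3.60% (2.24 to 5.45) of genes with a deep peak and 1.74% (0.801 to 3.29) of genes without.

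The hosts with most deep peaks were of several functions. RAD51B, a gene of homologous recombination, held 29 deep peaks of 2.24 to 9.76-fold over a span of 863318 bp (chr14:67819779-68683096). It also had peaks at its 5′ end (4.38-fold) and its 3′ end (7.16-fold). RAD51B lay where the background was high: the median at its deep peaks was 8.89 reads, against 3.24 over all deep peaks, and its part in the count was not tested. EXT1, which polymerises heparan sulfate, held 22 deep peaks of 2.84 to 6.25-fold, the densest of all hosts with at least 5, at 101 per Mb (gene chr8:117794490-118111826). The 15 deep peaks of DLC1 reached 8.05-fold and the 15 of STARD13 5.86-fold, both genes of START domain proteins, and STARD13 had no peak at either end.

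CAST held 18 deep peaks of 2.85 to 9.19-fold. DST, which encodes the linker protein dystonin, held 17 of 2.72 to 9.44-fold. KCNMA1, the BK potassium channel gene, held 17 of 2.92 to 5.68-fold, and KCNQ5, another potassium channel gene, 14 of 2.75 to 5.50-fold. BCAR3 held 14 of 2.92 to 14.05-fold. MACF1, which links microtubules to actin, held 14 of 2.75 to 6.65-fold and had no peak at its own ends. Of the 8 of these 10 hosts whose strand was known, STARD13 and MACF1 lacked a 5′ peak. Over all 583 hosts of known strand, 379, or 65.0%, had a 5′ peak.

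**Figure D4:**
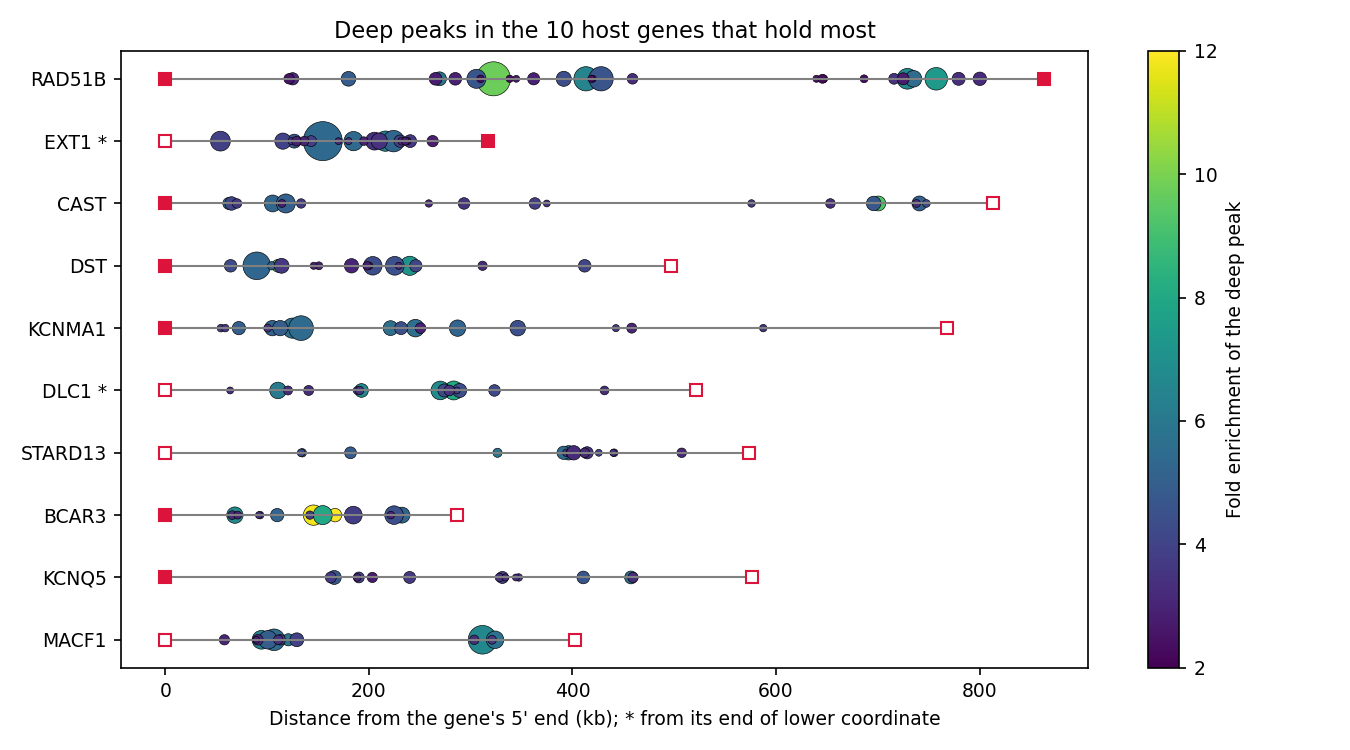
Deep peaks along the 10 host genes that hold most; the x axis is the distance in kb from the 5′ end, or for EXT1 and DLC1 (marked with a star, strand not known) from the end of lower coordinate. Circles are deep peaks, larger when wider and coloured by fold, and red squares are the gene's ends, filled where a peak lies within 1000 bp. The 22 peaks of EXT1 crowd into a short gene, while the 18 of CAST are spread over a gene of 813255 bp.

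Among hosts with at least 5 deep peaks, the next 9 in density after EXT1 all had a peak at the 5′ end. Of all 583 hosts whose strand was known, 65.0% (61.0 to 68.9) had one. The share was 73.3% (67.2 to 78.8) for hosts with 100 to 200 kb of deep interior. PTPN14, a tyrosine phosphatase that restrains YAP, held 9 deep peaks at 87.5 per Mb and had 12.3-fold at its 5′ end. ME3, a mitochondrial malic enzyme, held 11 at 79.9 per Mb with 8.20-fold at its 5′ end. CDK6, a kinase of the G1 phase, (chr7:92604921-92836573) held 10 at 76.0 per Mb with 7.88-fold at its 5′ end. None of its deep peaks passed 4.73-fold and none lay at an annotated start. SEPTIN9, a septin cytoskeletal gene, held 9 at 75.6 per Mb, and BCAR3 followed at 75.1. MICAL2, an enzyme that oxidises actin, held 11 at 72.6 per Mb, RBMS1 7 at 57.5, ABTB2 6 at 56.1 and FMNL2, a formin of actin assembly, 12 at 55.9.

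Deep peaks were often close to one another. A gap of at most 10000 bp to another deep peak was found for 955, or 43.2%, and 377 groups of 2 or more were formed that way, 21 of them with at least 5 peaks. The same share was not computed for other peaks, so closeness cannot be called particular to deep peaks. Peaks in such groups were of the same strength as those alone, with medians of 3.83-fold and 3.82-fold, and somewhat wider, at 1250 bp against 1149 bp. The largest group had 20 peaks in EXT1, of 3.53-fold at the median. Groups of 9 stood in CDK6 (median 3.55-fold), ATXN1 (3.42-fold), which encodes a polyglutamine protein, and MACF1 (3.94-fold). The background was 4.14 reads at the EXT1 group, 4.90 at that of CDK6, 4.32 at that of ATXN1 and 3.83 at that of MACF1. The median over all deep peaks was 3.24. The 5 Mb bin around the ATXN1 group had a raised background of 5.41 reads. Its part in these groups was not tested. A group of 6 in PRKAG2, a regulatory subunit gene of the AMP-activated kinase, had a higher median, of 6.03-fold.

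The widest deep peak, 20699 bp in EXT1, was of 5.36-fold. Wide deep peaks followed in RAD51B (15667 bp, 9.76-fold), MICAL2 (11592 bp, 6.28-fold), LPP, a focal adhesion gene (11401 bp, 4.47-fold), and MACF1 (10946 bp, 6.65-fold). WWTR1 (10270 bp, 5.42-fold), RUNX1, a transcription factor gene (10262 bp, 5.83-fold), and DST (10189 bp, 5.26-fold) came next. APBB2, an adaptor that binds the amyloid precursor protein, held a further wide deep peak (8923 bp, 5.23-fold). Of all deep peaks, 52, or 2.35%, were at least 5000 bp wide, against 2.29% at gene ends and 3.19% far between genes.

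Some of the longest genes had no deep peak at all. RBFOX1, a neuronal splicing factor gene, had 2374 kb of deep interior and no peak there or at its 5′ end. CNTNAP2 (2204 kb), PTPRD (2199 kb), PCDH15 (1725 kb), ROBO2 (1643 kb) and NRXN3 (1598 kb), all genes of cell surface proteins, had none either. DPP10 (1303 kb) and AGBL4 (1252 kb) were also without peaks at both places. CSMD1 (1960 kb) had no deep peak and its 5′ end could not be assigned. NAALADL2 (1270 kb) differed, with 6.87-fold at its 5′ end.

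Gene lists differed in density. The lists were written with earlier results of these data known, so they are not independent of the data. Each is given beside all 1325 eligible genes, of which 52.5% held a deep peak, at 5.37 per Mb (5.15 to 5.60). Where the strand was known, 55.1% of these genes had a 5′ peak. Transcription and chromatin regulators had 8.61 per Mb (7.44 to 9.92), with a deep peak in 44 of 64 genes and a 5′ peak in 65.4%. NCOA2 (14.6-fold), NFIB (11.2-fold), ZFHX3 (10.3-fold) and ARID1B, a SWI/SNF subunit gene (9.01-fold), led them. AUTS2 (1095 kb of deep interior) and FOXP1 (529 kb) had neither a deep nor a 5′ peak, and SOX5 had a 5′ peak of 5.53-fold only. Growth factor receptors and signalling kinases had 7.42 per Mb (6.20 to 8.81), with a deep peak in 33 of 51. FGF12 (10.4-fold), PRKAG2 (8.16-fold), IGF1R, the receptor of insulin-like growth factor 1 (7.29-fold), and TGFBR3, a coreceptor of TGF-beta (7.07-fold), led them. NRG3, EPHA6, ALK and FGF14 had no peak at either place. This list is broader than its name, since FGF12, FGF14 and NRG3 encode neither receptors nor kinases, and its density was not recounted without them.

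Synapse and neurite genes and common fragile site genes were the sparsest. Synapse and neurite genes had 1.91 per Mb (1.53 to 2.34), with a deep peak in 26 of 59 and a 5′ peak in 27.3%. DLGAP1 (11.3-fold) and the teneurin genes TENM2 (9.17-fold) and TENM3 (8.53-fold) led them. Fragile site genes had 2.08 per Mb (1.62 to 2.63), yet a deep peak in 19 of 30 and a 5′ peak in 69.6%. RAD51B alone held 29 of their 69 deep peaks. The next highest folds of that list were in DAB1, a reelin adaptor (5.92-fold), IMMP2L, a mitochondrial peptidase subunit gene (5.46-fold), and CTNNA3, an alpha-catenin gene (4.85-fold). The 2 sparse lists thus differed at the 5′ end. Both are made of very long genes, the first with 47.8 Mb of deep interior in 59 genes and the second with 33.2 Mb in 30, and length and function cannot be told apart here.

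**Figure D5:**
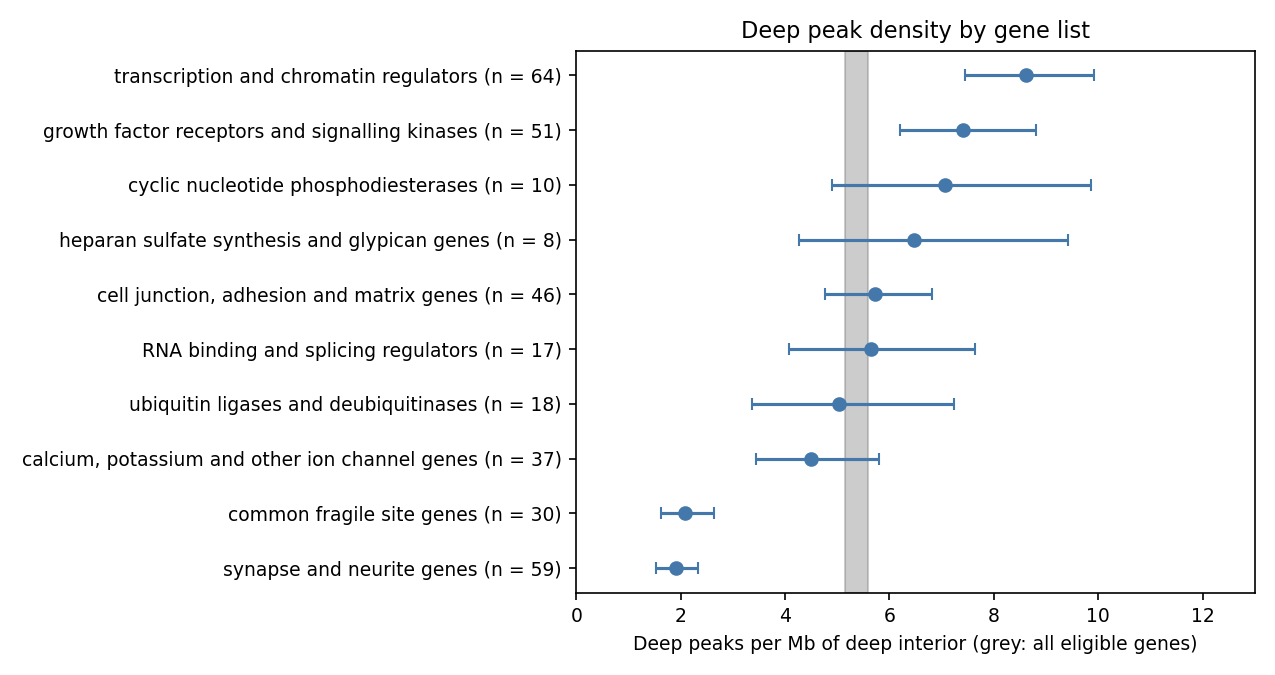
Deep peaks per Mb of deep interior in 10 gene lists, with exact 95% counting intervals and the number of eligible genes; the grey band is the interval of all 1325 eligible genes. Transcription and chromatin regulators stand highest at 8.61 per Mb, and synapse and neurite genes lowest at 1.91 per Mb.

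The other lists lay nearer to all eligible genes. Cyclic nucleotide phosphodiesterases had 7.06 per Mb (4.89 to 9.87), with a deep peak in 8 of 10 genes but a 5′ peak in 2 of 9. PDE10A held 12 deep peaks up to 6.02-fold and PDE4D 10 up to 6.37-fold. Cell junction, adhesion and matrix genes had 5.72 per Mb (4.76 to 6.82), with a deep peak in 29 of 46. DST (9.44-fold) and ADAMTSL1 (8.56-fold) led them, and the cadherin genes CDH12, CDH13 and CDH18 had no deep peak. Genes of RNA binding and splicing had 5.66 per Mb (4.08 to 7.65), led by RBMS1 (9.46-fold) and TNRC6A, a gene of microRNA silencing (8.84-fold). Ion channel genes had 4.504 per Mb (3.44 to 5.80), with a deep peak in 15 of 37, led by KCNQ1 (11.2-fold). Their list holds TRPS1, which is a transcription factor, and without it the density was 4.41 per Mb. Ubiquitin ligases and deubiquitinases had 5.03 per Mb (3.37 to 7.23), and 11 of their 29 deep peaks were in NEDD4L. Heparan sulfate and glypican genes had 6.47 per Mb (4.27 to 9.42), and EXT1 held 22 of their 27.

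Near the 50000 bp limit the number of peaks was similar on both sides. The peaks just inside were in TTLL5 (50002 bp from an end, 5.87-fold), DOCK5 (50028 bp, 4.88-fold) and GALNT10 (50048 bp, 8.02-fold). Those just outside were in PLCL2 (49991 bp, 3.10-fold), OSBPL1A (49822 bp, 5.54-fold) and GRM5 (49793 bp, 3.77-fold). In the 10 kb on either side, 197 peaks inside had a median of 3.94-fold and 1255 bp. The 205 outside had 3.67-fold and 1080 bp, and no interval was computed for these medians.

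Across chromosomes the density of deep peaks ran from 3.51 per Mb (2.29 to 5.14) on chromosome 20 to 9.93 (4.76 to 18.3) on chromosome 19, where only 10 deep peaks were found. The median fold per chromosome lay between 2.85 on chromosome 19 and 4.58 on chromosome 21. The median background was highest on chromosomes 19 and 14, at 6.89 and 4.99 reads. Of all deep peaks, 11.3% stood in bins of 5 Mb with raised background, against 16.4% of all peaks on chromosomes 1 to 22. The share was 12.7% in long genes nearer their ends, 13.8% far between genes and 17.4% at gene ends. Deep peaks in raised bins had a median of 3.45-fold (3.28 to 3.56), against 3.85-fold (3.80 to 3.91) elsewhere. A deep peak at an annotated start was found for 5.29% (2.57 to 9.51) of those in raised bins and 10.4% (8.99 to 11.96) of the others.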

How the data were processed

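Per the submitters' processing notes, reads were prepared with bcl2fastq 2.17, cutadapt 1.18 and Trimmomatic 0.38, aligned to hg38 with Bowtie2 2.3.4.1 and passed through Picard, MACS2 (2.1.2 and 2.1.0 are both listed) and ChIPseeker. The caller's settings and the control it used are not given in the sources used here. The deposited broad peak list of 1 library holds a ratio, the fold enrichment of each peak over the caller's local background, averaged over the peak. The deposited significance is given as −log10 p and −log10 q, and the deposited score is 10 times −log10 q cut to a whole number in 99.98% of peaks. The largest q was 0.0472. The deposited values give no depth.

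From these, peaks were placed in 58957 RefSeq genes of GRCh38.p14 (19862 protein-coding) with Python 3.11.15, pandas 2.3.3 and scipy 1.17.1. The gene table has no strand or exons. Strand and starts came from RefSeq start sequences, which lack chromosome 8 (144 deep peaks) and other genes, so 340 deep peaks had no start to look up. Shares have Clopper-Pearson, densities Poisson and medians order-statistic intervals. The background was solved from fold and −log10 p as a Poisson mean with 1 read added to both sides, and is raised where the median of a 5 Mb bin exceeded 1.5 times the median bin. The placing rule was checked on simulated peaks. The solving of the background was checked only on values made with its own formula, without averaging over a peak. That check cannot show that the background values themselves are right. Genes named are the 15 deep peaks of highest fold, the 10 widest, the 10 hosts with most and the 10 densest with at least 5, the 10 longest interiors without any, and up to 4 of each kind per list. The inner starts and the groups of close peaks that are named were chosen after their values were seen. The members and lists were chosen with earlier results of these data known. Results on 1 list and 1 gene are not reported here.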

Additional observations from a re-analysis of the deposited data

Results flagged for a closer look

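On chromosome X, which the rule leaves out, 22 peaks met the rest of it, in 14 of 56 eligible long genes. They are given here because they lie in data outside the comparisons. Over 17.9 Mb of deep interior the density was 1.23 per Mb (0.771 to 1.86), against 5.37 per Mb (5.15 to 5.60) on chromosomes 1 to 22. Their median was 4.06-fold and their highest 7.17-fold.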

How the results depend on the processing

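Of the values recomputed under the alternatives, 61 stayed within their counting interval or, for counts, within 1.5 times, and 40 moved. With only peaks of −log10 q of at least 5, there were 995 deep peaks of median 4.82-fold and 1954 bp, 42.5% of at least 5-fold, 2.42 per Mb, in 454 hosts (34.3% of eligible genes). Then 27.4% lay within 10000 bp of another, 10.95% at a noncoding gene end and 14.4% at an annotated start, and 58.8% of hosts had a peak at an end. With genes of at least 400000 bp, 1063 peaks in 274 hosts (58.9%) had 3.95 per Mb, with 17.5% of at least 5-fold, 40.8% close to another and 56.9% of hosts with an end peak. With genes of at least 100000 bp, 1052 hosts (34.6%) had 5.93 per Mb and 69.5% had an end peak. A distance of 100000 bp gave 1230 peaks, 4.40 per Mb and 36.9% of genes, and 25000 bp gave 58.6% of genes. Keeping away from the ends of genes of every biotype left 869 peaks of 3.75-fold and 1103 bp in 399 hosts (33.7%), with 15.3% of at least 5-fold, 4.24 per Mb, 37.7% close to another, 6.64% at an annotated start and 0% at a noncoding end, the last by construction. Merging peaks within 1000 bp gave 1323 bp, 4.97 per Mb and 34.6% close. Counting a start only inside the peak gave 8.07%. No paired analysis was possible because each group holds 1 library and no test was run. Depth is unknown, so a missing peak cannot be told from one too weak to call, and there is no measure of the spread between libraries.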
